A study of Mus musculus with 20 samples.

Results

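Afp, its neighbour Alb, the Afp repressors Zhx2 and Zbtb20, and Gpc3, Spink1 and Cd24a, which are known as genes of fetal, regenerating or malignant liver, are described here across resting and regenerating mouse liver with and without Eed in hepatocytes. The 7 genes were taken by name from a list written with earlier results of these data known, so the calls among them are not those of an unselected set. All 7 were among the 46603 genes in the count files and among the 14661 that passed the filter on low counts. Each was read in 20 liver libraries, in 4 groups of 5.

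All mice were male, aged 2 months and fed chow. The wild type (WT) mice were C57BL/6J animals bought from The Jackson Laboratory. The knockout mice, labelled EedHepKO and here KO, carried a Cre transgene under the albumin promoter and Eed alleles with loxP sites around exons 3 and 6, so that functional EED is lost in cells that use the albumin promoter while other liver cells keep the gene. Their strain label is C57BL6/J. At baseline, liver lobes 1, 2 and 3 were taken at partial hepatectomy (PHx), and afterwards lobes 4, 5 and 6 of the same mice were collected at 30 h (1 mouse per genotype), 40 h (2 per genotype) or 48 h (2 per genotype). The WT mice are numbered 1 to 5 and the KO mice 7, 8, 10, 11 and 12. The title of WT baseline library 1 holds a running number and no mouse number, so this library is listed under 1 but not paired. WT mouse 1 and KO mouse 12 were taken at 30 h, WT mice 2 and 3 and KO mice 10 and 11 at 40 h, and WT mice 4 and 5 and KO mice 7 and 8 at 48 h. Genotype cannot be told apart from colony of origin, and the change after PHx cannot be told apart from the lobes sampled. In whole liver, fewer cells of a type and less RNA per cell cannot be told apart either.

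Alpha-fetoprotein, the product of Afp, is the main serum protein of the fetal liver, and its gene is shut down in hepatocytes after birth while Alb, the gene of serum albumin, stays on. Both genes belong to a cluster on chromosome 5. Zhx2, a zinc finger and homeobox protein, and Zbtb20, a zinc finger protein with a BTB domain, are known as repressors of Afp in postnatal liver. Afp is known to come back on in regeneration and in liver cancer. EED is a core subunit of polycomb repressive complex 2, which methylates histone H3 at silent genes. The question of the design is how liver lacking this complex in hepatocytes differs at rest and during regeneration.

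Afp (ENSMUSG00000054932) lies on chr5:90490737-90508907 and Alb (ENSMUSG00000029368) upstream of it on the same strand, on chr5:90460897-90476602 (GENCODE M21, mm10). The RefSeq promoter table (GRCm38.p6), which gives 250 bases before and 50 after each start, held 4 of the 7 genes: Afp, Alb, Zbtb20 and Gpc3. The Afp and Alb windows are shown because the pair holds the fetal and the adult member of 1 gene family. Capitals mark TATAAA, a form of the TATA box, and CCAAT, a common promoter element, both searched on both strands, so that CCAAT on the other strand reads ATTGG. No match overlapped another.
Afp promoter, chr5:90490464-90490763, plus strand: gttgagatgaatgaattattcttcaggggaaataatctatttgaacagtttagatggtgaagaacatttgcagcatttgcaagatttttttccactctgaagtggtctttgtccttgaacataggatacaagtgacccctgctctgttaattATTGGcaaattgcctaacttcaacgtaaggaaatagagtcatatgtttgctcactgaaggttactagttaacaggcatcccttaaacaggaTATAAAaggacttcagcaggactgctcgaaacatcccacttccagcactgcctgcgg
Alb promoter, chr5:90460620-90460919, plus strand: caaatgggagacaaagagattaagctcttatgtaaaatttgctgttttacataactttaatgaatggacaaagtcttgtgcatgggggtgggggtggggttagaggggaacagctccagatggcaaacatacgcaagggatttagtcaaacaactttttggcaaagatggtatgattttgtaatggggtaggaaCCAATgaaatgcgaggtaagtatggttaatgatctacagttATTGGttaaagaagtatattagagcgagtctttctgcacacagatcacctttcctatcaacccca

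The Afp window held 1 TATAAA and 1 CCAAT, and the Alb window 2 CCAAT and no TATAAA of that spelling. Of 32851 promoter windows of the same length, 13.6% held TATAAA and 37.4% held CCAAT. Both windows had 40.0% G and C and 3 CG dinucleotides, against a median of 7. The Gpc3 window differed in composition, with 70.7% G and C and 30 CG dinucleotides, a number reached by 11.7% of windows. It is shown with CG in capitals, since CG-rich promoters are the kind that polycomb complexes are known to occupy.
Gpc3 promoter, chrX:52613925-52614224, minus strand: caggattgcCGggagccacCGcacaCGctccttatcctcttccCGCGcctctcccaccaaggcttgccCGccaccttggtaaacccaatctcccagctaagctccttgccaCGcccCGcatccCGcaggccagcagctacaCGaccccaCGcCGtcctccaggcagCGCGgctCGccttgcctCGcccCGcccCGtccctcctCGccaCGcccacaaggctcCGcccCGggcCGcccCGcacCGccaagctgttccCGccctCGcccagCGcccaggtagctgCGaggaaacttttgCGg
These are letters in the reference, and no binding or methylation was measured.

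Total counts ran from 21634890 to 30461351 per library. Eed was 14.6 to 23.2 CPM in the WT libraries and 2.75 to 7.52 CPM in the KO libraries, where CPM is counts per 1000000 counts of the library total scaled by edgeR's TMM factors. These factors ran from 0.670 to 0.806 in WT at baseline and from 0.891 to 1.51 in the other 3 groups. Scaling by library size alone therefore moved the median log2 fold change of all genes by 0.48 for KO against WT at baseline, by 0.38 for KO against WT after PHx, by 0.36 for PHx in WT and by 0.27 for PHx in KO. Among called genes, higher ones made up 69.5% under TMM and 96.9% by library size for KO against WT at baseline, 66.1% and 92.9% after PHx, 56.8% and 86.7% for PHx in WT, and 59.1% and 80.9% for PHx in KO. Log2 fold changes below are from edgeR's quasi-likelihood test under TMM, and a gene is called at a Benjamini-Hochberg adjusted p under 0.05 over the 14661 genes.

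Gpc3, Spink1 and Cd24a were higher and Zbtb20 was lower in KO than in WT liver at both stages, while Afp was called higher in KO after PHx and was not called at baseline. The Afp calls depended on the fit: in the 10 libraries of each stage alone, Afp was called at baseline and not after PHx. The difference of its PHx responses between genotypes was not called. At baseline 4 of the 7 genes were called, 3 higher and 1 lower, against 16% of all genes (11.1% higher and 4.89% lower). After PHx 5 were called, 4 higher and 1 lower, against 24.2% (16% higher and 8.20% lower). The PHx response of WT called 2 genes, Afp and Cd24a, both higher, against 20.1% (11.4% higher and 8.68% lower). That of KO called 3, Afp, Cd24a and Gpc3, all higher, against 29.5% (17.5% higher and 12.1% lower). For PHx no member had groups that did not overlap, in either genotype, whereas 6.91% of all genes lay wholly higher and 10.9% wholly lower in WT and 6.19% and 7.73% in KO. The comparisons share groups, so their counts are not independent of one another.

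**Figure D1:**
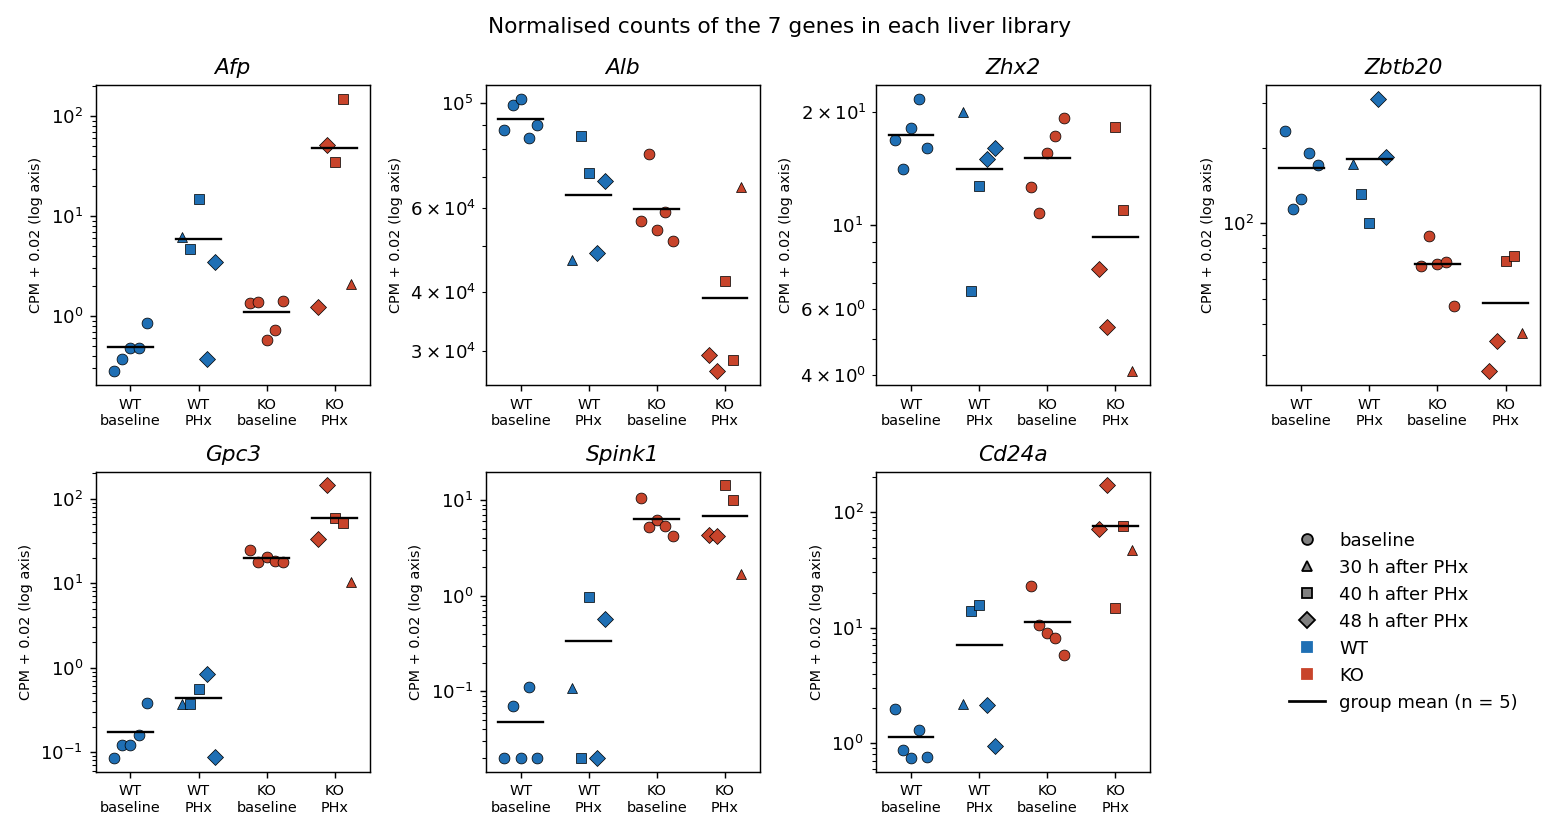
Normalised counts of the 7 genes in each library, in CPM plus 0.02 on a log axis, by group (WT blue, KO red); shapes give the time after PHx and bars the group mean of 5 libraries. Gpc3 and Spink1 lie higher in every KO library than in every WT library, Zbtb20 lies lower, and Afp after PHx spreads from 1.23 to 150.5 CPM in KO.

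**Figure D2:**
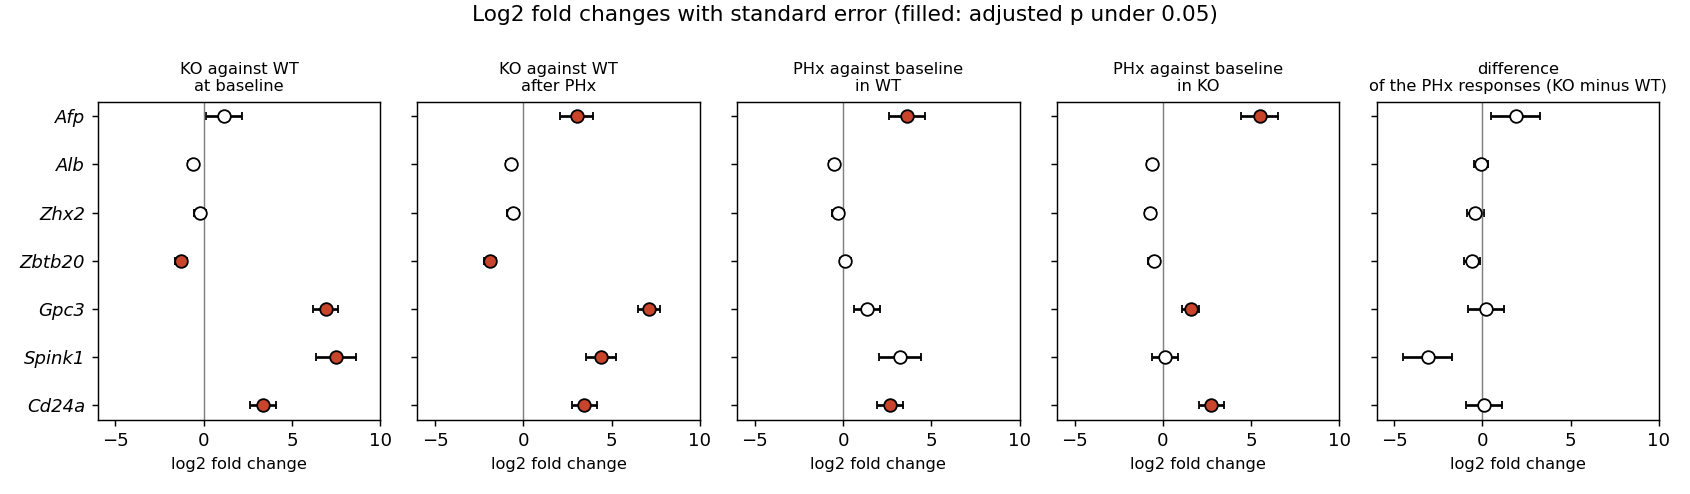
Log2 fold change of each gene with its standard error in the 5 comparisons; filled points have an adjusted p under 0.05. The filled points lie right of 0 except Zbtb20, and no point is filled for the difference of the PHx responses.

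In resting liver Afp was low in both genotypes. WT mice 1 to 5 had 0.26, 0.35, 0.463, 0.459 and 0.826 CPM, from 4 to 18 reads per library. KO mice 7, 8, 10, 11 and 12 had 1.33, 1.35, 0.552, 0.706 and 1.41 CPM, from 16 to 40 reads. The groups overlapped, with KO mice 10 and 11 below the highest WT mouse. The means were 0.472 ± 0.215 CPM (SD, n = 5) in WT and 1.07 ± 0.407 CPM (SD, n = 5) in KO, and the log2 fold change of 1.15 (SE 1.04) was not called (adjusted p 0.487). In a fit of these 10 libraries alone it was 1.18 and was called (adjusted p 0.0328).

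After PHx Afp rose in both genotypes, and its spread between mice was wide. WT mice 1 to 5 had 6.24, 4.70, 14.9, 0.355 and 3.50 CPM. KO mice 7, 8, 10, 11 and 12 had 1.23, 51.5, 35, 150.5 and 2.08 CPM. KO mice 8, 10 and 11 exceeded every WT mouse, whereas KO mice 7 and 12 each lay below 4 of the 5 WT mice. Against baseline the rise was 3.62 on the log2 scale in WT (SE 1.04, adjusted p 0.0186) and 5.49 in KO (SE 1.06, adjusted p 0.0018). The WT rise was not called without WT mouse 3, the highest (log2 2.93, adjusted p 0.052), nor in the fit that pairs libraries by mouse (2.76, adjusted p 0.187).

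The same mice showed the rise in most pairs. Of the 4 WT mice with a number in both titles, 3 had more Afp after PHx than before and 1, mouse 4 at 48 h, had 0.355 after 0.459 CPM. Of the 5 KO mice 4 had more, and mouse 7 had 1.23 after 1.33 CPM. The largest climb was in KO mouse 11, from 0.706 to 150.5 CPM, or from 17 to 5414 reads. The plot of libraries joined by mouse shows these pairs.

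**Figure D3:**
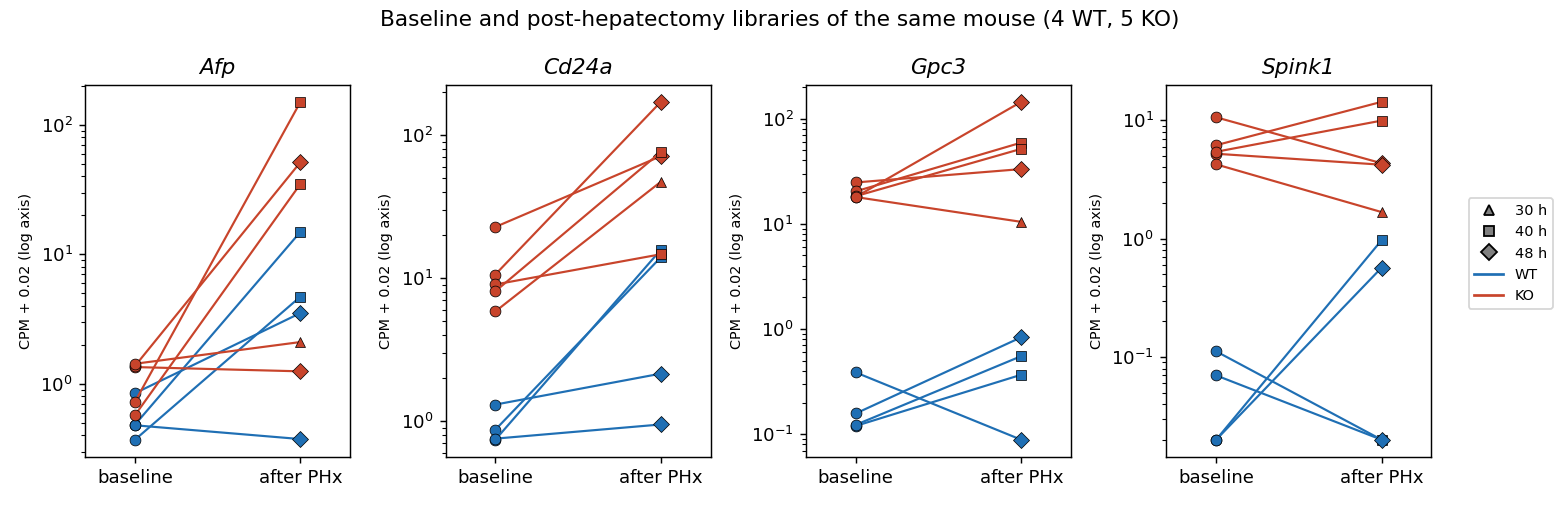
CPM plus 0.02 (log axis) at baseline and after PHx in libraries of the same mouse, 4 WT (blue) and 5 KO (red), for Afp, Cd24a, Gpc3 and Spink1; shapes give the time. Cd24a rises in all 9 mice, Afp in 7 of 9, Gpc3 in 7 of 9 and Spink1 in 4 of 9.

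Between genotypes after PHx, Afp averaged 5.94 ± 5.46 CPM (SD, n = 5) in WT and 48.1 ± 61.2 CPM (SD, n = 5) in KO, a log2 fold change of 3.02 (SE 0.93, adjusted p 0.023). The call rests on few mice. Without KO mouse 11 the log2 fold change was 1.87 (adjusted p 0.123) and without WT mouse 5 it was 2.85 (adjusted p 0.0521). With time after PHx as a term it was 2.85 (adjusted p 0.227), and in the 10 libraries after PHx alone 3.08 (adjusted p 0.142).

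Markers of cell division were read beside Afp and were high and low in partly the same mice. The summed level of 8 proliferation genes, Mki67 and Top2a among them, was 2.16 to 4.55 CPM in WT at baseline and 1.45 to 1025 CPM in WT after PHx, with all 8 called higher after PHx. In KO it was 20.5 to 118 CPM at baseline and 11 to 637 CPM after PHx, with 0 of 8 called for the change. In KO against WT 3 of the 8 were called higher at baseline and 0 after PHx. No marker was at 0 in any group. WT mouse 5 had the highest sum, 1025 CPM, with 3.50 CPM of Afp, and WT mouse 2 had 1.52 CPM of the markers with 4.70 CPM of Afp. In KO the highest sum, 637 CPM, was in mouse 10, and the highest Afp was in mouse 11, whose sum was 90.9 CPM. KO mice 7 and 12, with the lowest Afp of that group, had its lowest sums, 11 and 11.5 CPM, and KO mouse 8, with 51.5 CPM of Afp, had 32.9 CPM. WT mouse 4 was lowest of the WT mice after PHx for both, with 1.45 CPM of the markers and 0.355 CPM of Afp. The part of cell division in the Afp result was not tested.

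**Figure D4:**
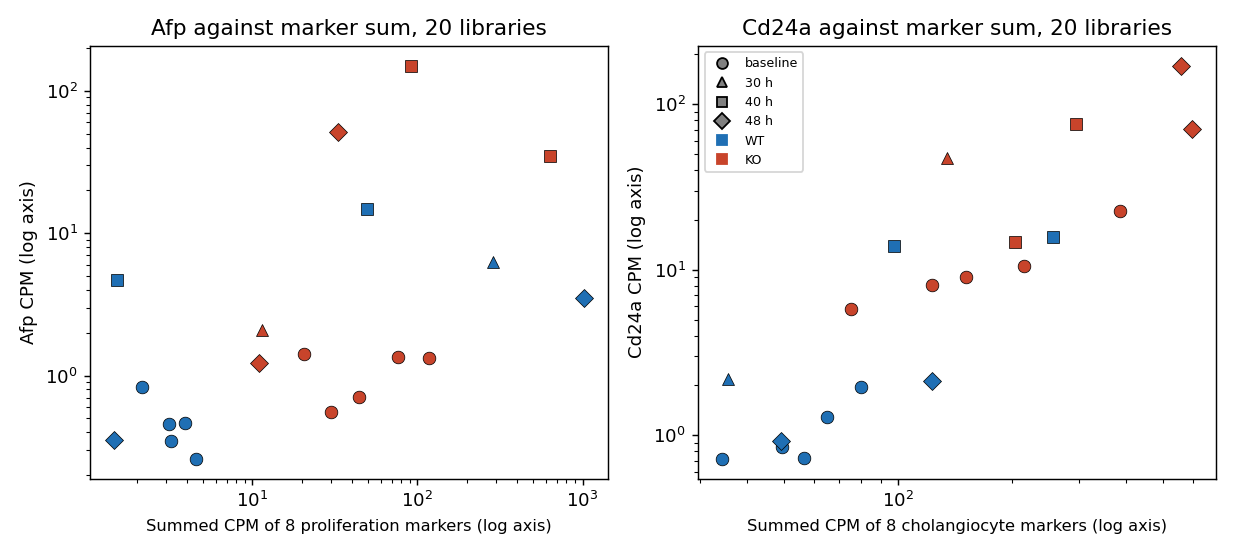
Afp against the summed CPM of 8 proliferation markers (left) and Cd24a against that of 8 cholangiocyte markers (right) in the 20 libraries, log axes, WT blue and KO red, shapes by time. Libraries with Afp above 30 CPM are KO mice at 40 h and 48 h with marker sums from 32.9 to 637 CPM, and the 2 libraries with the highest cholangiocyte sums, 597 and 557 CPM, have 71.1 and 170.5 CPM of Cd24a.

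In CPM Alb was lower in every KO baseline library than in every WT one, but neither genotype difference was called. The separation rests on the TMM factors. As a share of all counts at baseline, KO mouse 8 lay above every WT library. It had 1849188 of 22789548 counts, and the highest WT library, mouse 2, had 1980359 of 25104135. WT mice 1 to 5 had 87680, 98999, 102215, 84231 and 89974 CPM at baseline. KO mice 7, 8, 10, 11 and 12 had 56456, 78144, 54098, 59072 and 51203 CPM. Alb and Zbtb20 were the members whose KO baseline values all lay below WT, which 12.2% of all genes did. The log2 fold change was -0.63 (SE 0.28, adjusted p 0.135), and in the 10 baseline libraries alone it was -0.60 and called (adjusted p 0.0135). Over 16 alternative fits it ran from -0.75 to -0.15, and 1 of the 16 called it.

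After PHx the WT mice had 46787, 85043, 71315, 48385 and 68455 CPM of Alb and the KO mice 29524, 27206, 42148, 28693 and 66619 CPM. KO mouse 12, taken at 30 h, was the only KO mouse above 42148 CPM. The log2 fold change of KO against WT was -0.72 (SE 0.28, adjusted p 0.0695). Without KO mouse 12 it was -1.01 and called (adjusted p 0.00663), and DESeq2 called it at -0.70 (adjusted p 0.0237). Against baseline Alb in CPM was lower in 4 of 4 WT mice and in 4 of 5 KO mice. As a share of all counts WT mouse 5 did not fall, with 1961417 of 27061864 before and 1993419 of 27324039 after. Over 17 alternative fits the WT change ran from -0.66 to -0.18 and was called in 0. The log2 fold changes were -0.53 in WT (adjusted p 0.19) and -0.62 in KO (adjusted p 0.0989), neither called. The latter was called without KO mouse 12 (-0.91, adjusted p 0.0138).

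The 8 hepatocyte markers, a list that holds Alb itself, had summed levels of 127078 to 145547 CPM in WT and 75992 to 101780 CPM in KO at baseline, with 3 of 8 called lower, none of them by library size alone. After PHx the sums were 73320 to 118083 CPM in WT and 38480 to 93032 CPM in KO, with 2 of 8 called lower. No hepatocyte marker was at 0 in any group.

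Per kilobase of exon, the 2 transcripts differed by several orders of magnitude. Alb was 39547 ± 3270 CPM per kilobase (SD, n = 5) and Afp 0.14 ± 0.0639 in WT at baseline. In KO after PHx Alb was 16583 ± 7106 and Afp 14.3 ± 18.2 CPM per kilobase (SD, n = 5). The ratio of Alb to Afp per length was 156705 to 484906 in WT at baseline, 52282 to 140997 in KO at baseline, 6876 to 196281 in WT after PHx and 274 to 45994 in KO after PHx. Its 2 baseline ranges did not overlap, and its lowest value was in KO mouse 11 at 40 h. The ratio cancels the library scaling.

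Of the other members of the albumin family, Afm, the gene of afamin, and Gc, the gene of the vitamin D binding protein, were called lower after PHx in WT (log2 -1.18, adjusted p 0.0381, and -0.79, adjusted p 0.0181). In KO Gc was called lower (-0.87, adjusted p 0.00847) and Afm was not (-0.60, adjusted p 0.246). Both WT calls were lost when libraries were scaled by size alone. Between genotypes 0 of the 4 family genes were called at baseline and 1, Afp, after PHx.

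Zbtb20 was lower in KO at both stages. At baseline WT mice 1 to 5 had 233, 114, 125, 189 and 171 CPM, and KO mice 7, 8, 10, 11 and 12 had 67.9, 89.1, 69.0, 70.3 and 46.8 CPM. After PHx the WT values were 172, 131, 100, 313 and 183 CPM and the KO values 25.8, 34.2, 71.1, 74.4 and 36.7 CPM. In CPM every KO library lay below every WT library at both stages, as 12.2% of all genes did at baseline and 2.97% after PHx. As shares of all counts the groups overlapped at both stages. At baseline KO mouse 8 had 2108 of 22789548 counts and WT mouse 2 had 2275 of 25104135. After PHx KO mouse 11 had 2675 of 23880373 and WT mouse 3 had 2636 of 27203478. The log2 fold change was -1.28 at baseline (SE 0.32, adjusted p 0.0101) and -1.89 after PHx (SE 0.33, adjusted p 0.000345). Scaled by library size alone, the baseline difference was -0.78 and not called (adjusted p 0.0985).

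Zbtb20 (ENSMUSG00000022708) spans chr16:42875881-43642602 on the plus strand. The pseudogene BC002163, counted as a gene of its own with 14390 reads over the 20 libraries, lies within it on the same strand, with no shared exon. The PHx change of Zbtb20 was not called in WT (log2 0.11, adjusted p 0.841) or in KO (-0.50, adjusted p 0.233).

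Zhx2 (ENSMUSG00000071757, chr15:57694665-57839832, plus strand) was not called in any of the 4 comparisons of groups. At baseline WT mice 1 to 5 had 16.8, 14, 18.1, 21.6 and 16 CPM, and KO mice 7, 8, 10, 11 and 12 had 12.6, 10.8, 15.5, 17.2 and 19.2 CPM. After PHx the WT values were 19.9, 6.65, 12.7, 15 and 16 CPM and the KO values 7.64, 5.36, 18.2, 11 and 4.07 CPM. The groups overlapped at both stages, with KO mouse 10 among the highest and KO mice 7, 8 and 12 among the lowest after PHx. The log2 fold change of KO against WT was -0.20 at baseline (SE 0.33, adjusted p 0.723), with the opposite sign, 0.27, by library size alone, and -0.60 after PHx (SE 0.33, adjusted p 0.199). Without KO mouse 10 the latter was -1.0 and called (adjusted p 0.0148). The change after PHx was -0.30 in WT (adjusted p 0.561), or 0.08 by library size alone, and -0.70 in KO (adjusted p 0.114), called at -1.10 without KO mouse 10 (adjusted p 0.00772).

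Levels of the repressors and of Afp did not run in opposite order among the KO mice after PHx. KO mouse 11, with the highest Afp of 150.5 CPM, had the highest Zbtb20 of its group, 74.4 CPM, and 11 CPM of Zhx2. KO mouse 12, with 2.08 CPM of Afp, had the lowest Zhx2 of all libraries, 4.07 CPM. In WT after PHx the orders were closer to opposite for Zbtb20: mouse 3 had the highest Afp, 14.9 CPM, and the lowest Zbtb20, 100 CPM, and mouse 4 had the lowest Afp, 0.355 CPM, and the highest Zbtb20, 313 CPM. Over the 20 libraries Pearson's r on log2 CPM plus 1 was -0.30 between Afp and Zbtb20 and -0.30 between Afp and Zhx2. These points share mice, group and scaling, so r is a description only.

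Among 8 repressors of Afp and their relatives, Zbtb20 alone was called between genotypes at baseline (median log2 of the list -0.07, of all genes -0.03). After PHx Zbtb20 was lower and Nr2f1, an orphan nuclear receptor of the COUP-TF family, was higher (log2 2.36, SE 0.49, adjusted p 0.00163). Its means were 0.383 ± 0.223 CPM in WT and 1.98 ± 0.688 CPM in KO (SD, n = 5). The median was -0.26, against -0.01 for all genes. Zhx3, a relative of Zhx2, fell after PHx by 0.92 in WT (adjusted p 0.0274) and by 0.79 in KO (adjusted p 0.0414) on the log2 scale, and neither call held when scaled by library size alone. It was the only called gene of the list in both responses.

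Gpc3, which encodes a heparan sulfate proteoglycan of the cell surface made in fetal liver and liver cancer, was nearly silent in WT liver and clearly transcribed in KO liver. At baseline WT mice 1 to 5 had 0.065, 0.10, 0.103, 0.138 and 0.367 CPM, 16 reads in all, and KO mice 7, 8, 10, 11 and 12 had 24.7, 18, 20.3, 18.3 and 17.9 CPM. After PHx the WT values were 0.349, 0.348, 0.533, 0.815 and 0.0687 CPM and the KO values 33.1, 144, 59.0, 51.5 and 10.4 CPM. No KO library overlapped any WT library at either stage. Gpc3, Spink1 and Cd24a were the members whose KO values all lay above WT at baseline, as 15.6% of all genes did, and Gpc3 and Spink1 were those after PHx, as 7.05% of genes did. The log2 fold change was 6.91 at baseline (SE 0.69, adjusted p 1.58e-06) and 7.12 after PHx (SE 0.64, adjusted p 7.1e-07).

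Gpc3 (ENSMUSG00000055653) lies on chrX:52272426-52613950 on the minus strand, and its CG-rich promoter is printed above. The rise of Gpc3 after PHx in KO was 1.59 on the log2 scale (SE 0.49, adjusted p 0.0204) and was seen in 4 of 5 mice, mouse 12 at 30 h being lower (17.9 before and 10.4 CPM after). It was not called without KO mouse 8, the highest (0.94, adjusted p 0.119), or in the fit paired by mouse (1.15, adjusted p 0.141). In WT the change was 1.38 and not called (adjusted p 0.192).

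Of the 6 glypicans 4 passed the filter. At baseline 3 of them were called higher in KO, Gpc1 (log2 1.82, adjusted p 0.00748) and Gpc6 (1.19, adjusted p 0.0491) beside Gpc3. The same 3 were called after PHx, where Gpc1 differed by 1.92 (adjusted p 0.00314) and Gpc6 by 1.75 (adjusted p 0.00415). Medians of the list were 1.5 and 1.83. Mean Gpc1 at baseline was 5.42 ± 1.58 CPM in WT and 19.1 ± 6.60 CPM in KO (SD, n = 5). PHx called 0 of the 4 in WT and 2, Gpc1 and Gpc3, in KO.

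Spink1 (ENSMUSG00000024503, chr18:43728082-43737557, minus strand), a secreted trypsin inhibitor best known from pancreatic acinar cells, was likewise almost absent from WT liver. At baseline WT mice 2 and 4 had 0.05 and 0.0917 CPM, and mice 1, 3 and 5 had 0 reads, which allows up to 0.195, 0.154 and 0.138 CPM. KO mice 7, 8, 10, 11 and 12 had 10.6, 5.20, 6.14, 5.40 and 4.23 CPM. With 3 reads over the WT group against 840 in KO, the ratio was 215, with a 95% counting interval of 73.3 to 1045 that leaves out the spread between mice. The fitted log2 fold change was 7.50 (SE 1.11, adjusted p 0.00012).

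After PHx WT mice 1 to 5 had 0.0872, 0, 0.951, 0 and 0.549 CPM of Spink1, where 0 allows up to 0.13 CPM in mouse 2 and 0.106 CPM in mouse 4. KO mice 7, 8, 10, 11 and 12 had 4.32, 4.19, 14.3, 9.92 and 1.66 CPM. Every KO library lay above every WT library, with a log2 fold change of 4.4 (SE 0.85, adjusted p 0.000954). In KO there was no call for PHx (0.12, SE 0.72, adjusted p 0.908), with 2 mice higher, both at 40 h, and 3 lower. In WT the group went from 3 to 43 reads, a ratio of 10.9 with a counting interval of 3.49 to 54.9. Of those reads, 25 were in mouse 3 and 16 in mouse 5. The WT change of 3.22 was not called (adjusted p 0.0569), while DESeq2 called it (3.45, adjusted p 0.0152), as did scaling by library size alone (3.53, adjusted p 0.0292) and the fits without WT mouse 1 (3.45, adjusted p 0.0452), mouse 2 (3.53, adjusted p 0.0341) or mouse 4 (3.60, adjusted p 0.0294).

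Pancreatic acinar markers were read beside Spink1. Of 7 such genes, Cpa1, Pnlip, Amy2a5 and Prss2 had 0 reads in all 4 groups, and Ctrb1 had 0 in all but WT at baseline. The summed level of the 7 was 26.2 to 43.4 CPM in WT and 7.42 to 10.8 CPM in KO at baseline, and 3.50 to 8.63 and 3.81 to 7.05 CPM after PHx. Of the 7 only 1 passed the filter and was tested, and it was called lower in KO at baseline and not called between genotypes after PHx. The part of these cells in the Spink1 result was not tested.

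Cd24a (ENSMUSG00000047139, chr10:43578284-43584265, plus strand) encodes a small surface glycoprotein that is known from bile duct and progenitor cells of the liver and from blood cells. At baseline WT mice 1 to 5 had 1.95, 0.85, 0.72, 1.28 and 0.734 CPM, and KO mice 7, 8, 10, 11 and 12 had 22.7, 10.6, 9.0, 8.06 and 5.82 CPM. After PHx the WT values were 2.18, 14, 15.8, 2.13 and 0.927 CPM and the KO values 71.1, 170.5, 14.6, 76.1 and 47.1 CPM. The baseline groups were separate. After PHx they met only at 40 h, where KO mouse 10 lay below WT mouse 3.

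The log2 fold change of Cd24a in KO against WT was 3.36 at baseline (SE 0.75, adjusted p 0.00447) and 3.44 after PHx (SE 0.71, adjusted p 0.00167). After PHx it rose by 2.67 in WT (SE 0.74, adjusted p 0.0153) and by 2.75 in KO (SE 0.69, adjusted p 0.00747), with more reads after PHx in each of the 4 WT and 5 KO mice. Paired by mouse, the WT rise was 2.45 and not called (adjusted p 0.0651).

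Markers of bile duct cells were higher in several of the libraries with high Cd24a, though not in all. The summed level of 8 cholangiocyte genes, Krt19, Epcam and Sox9 among them, was 34.2 to 79.8 CPM in WT and 74.9 to 385 CPM in KO at baseline, and 35.6 to 257 and 135 to 597 CPM after PHx. Of the 7 that passed the filter, 1 was called higher in KO at baseline and 4 after PHx, and 3 rose after PHx in KO. For PHx in WT 0 of the 7 were called, while Cd24a was. None of the 8 was at 0 in any group. KO mouse 7 had both the highest baseline sum, 385 CPM, and the highest baseline Cd24a, and WT mouse 3 had both the highest WT sum, 257 CPM, and the highest WT Cd24a. After PHx the order differed in other mice. WT mouse 4 had a sum of 123 CPM with 2.13 CPM of Cd24a, against 97.5 CPM with 14 CPM in WT mouse 2, and KO mouse 10 had 203 CPM with 14.6 CPM, against 135 CPM with 47.1 CPM in KO mouse 12. The part of these cells in the Cd24a result was not tested.

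Other cell types were read beside Cd24a at baseline. Of 3 tested B cell markers 0 were called, with sums of 1.29 to 4.00 CPM in WT and 2.62 to 4.24 CPM in KO and none at 0. Of 4 tested neutrophil markers 2 were called higher in KO, with sums of 1.10 to 1.80 and 3.66 to 11.1 CPM, Ly6g at 0 in both groups and Mpo at 0 in WT. Macrophage markers, 2 of 6 called higher and none at 0, summed to 118 to 199 CPM in WT and 274 to 343 CPM in KO. Stellate cell markers, 3 of 6 called higher and none at 0, summed to 58.9 to 78.2 and 113 to 149 CPM. Of 5 tested erythroid markers 1 was called lower, with sums of 316 to 495 and 155 to 266 CPM. Endothelial markers, 1 of 6 called higher and none at 0, summed to 149 to 177 CPM in WT and 183 to 216 CPM in KO, and mesothelial markers, 1 of 4 called higher and none at 0, to 0.40 to 1.18 and 1.06 to 3.75 CPM. The proliferation genes given beside Afp, 3 of 8 called higher in KO at baseline, moved with these differences too. For KO against WT after PHx, 3 of the 5 tested erythroid markers were called lower. Macrophage, stellate cell and endothelial markers each had 1 of 6 called higher, and mesothelial markers 1 of 4. Neutrophil and B cell markers had 0 of 4 and 0 of 3 called. The part of all these markers in the higher Gpc3, Spink1 and Cd24a was not tested.

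After PHx, where Cd24a rose in both genotypes, 3 of the 4 tested neutrophil markers were called higher in WT and 1 in KO, with sums of 1.89 to 46.2 CPM in WT and 4.03 to 70.0 CPM in KO and none at 0. Of the 6 macrophage markers 2 were called higher and 1 lower in WT, and 1 higher and 3 lower in KO, with sums of 57.0 to 290 and 61.7 to 301 CPM. Of the 4 mesothelial markers 2 were called higher in WT and 1 lower in KO, with sums of 0.217 to 3.01 and 1.64 to 4.21 CPM. Of the 3 tested B cell markers 2 were called lower in each genotype, and of the 5 tested erythroid markers 1 in each. Hepatocyte markers were called lower for 3 of 8 in WT and 2 of 8 in KO, and stellate cell markers for 0 of 6 in WT and 2 of 6 in KO. Of the 6 endothelial markers 1 was called lower in WT, and 1 higher and 1 lower in KO. The part of all these cells in the Cd24a rise was not tested.

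Within single times after PHx the genotype contrast could be read at 40 h and 48 h, with 2 mice per genotype and a spread taken from the whole fit. Gpc3 and Spink1 were called higher in KO at both times, at 6.95 and 4.63 (adjusted p 0.000295 and 0.0175) at 40 h and at 7.64 and 3.92 (adjusted p 5.72e-05 and 0.022) at 48 h. Afp was 3.24 at 40 h, not called (adjusted p 0.0747), and 3.77 at 48 h, called (adjusted p 0.0347). Cd24a was 1.61 at 40 h (adjusted p 0.13) and 6.30 at 48 h (adjusted p 0.000255). Zbtb20 was -0.67 at 40 h (adjusted p 0.202) and -3.05 at 48 h (adjusted p 0.000119), and Zhx2 was 0.59 (adjusted p 0.26) and -1.25 (adjusted p 0.018). Alb was called lower at both, -1.14 (adjusted p 0.046) and -1.04 (adjusted p 0.0442). Over all genes 13.3% were called at 40 h (8.61% higher and 4.68% lower) and 24.3% at 48 h (13.7% and 10.7%). Whether the contrast differs between the times was not tested.

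At 30 h there was 1 mouse per genotype and so no test. WT mouse 1 had 6.24 CPM of Afp, 0.349 of Gpc3, 0.0872 of Spink1 and 2.18 of Cd24a, and KO mouse 12 had 2.08, 10.4, 1.66 and 47.1 CPM of the same genes. Afp was lower in the KO mouse and the other 3 were higher.

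The PHx responses of the 2 genotypes were compared directly, and 0 of the 7 genes were called in edgeR, against 0.389% of all genes (0.164% higher and 0.225% lower). Spink1 alone had an unadjusted p under 0.05, with a difference of -3.10 (SE 1.38, unadjusted p 0.0367, adjusted p 0.34). For Afp the difference of KO minus WT was 1.87 (SE 1.37, adjusted p 0.59), for Cd24a 0.09 (SE 1.02), for Gpc3 0.21 (SE 1.03) and for Zbtb20 -0.62 (SE 0.45). DESeq2 also called 0 of the 7.

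Of 19 liver transcription factors that act on the Afp and Alb promoters or enhancers, 5 were called at baseline, all lower in KO. They include Prox1 (log2 -1.07, adjusted p 0.0182), Onecut2 (-1.05, adjusted p 0.00197) and Cebpa (-0.88, adjusted p 0.019), an adult hepatocyte factor. By library size alone none of the 5 was called. Over all genes 16% were called at baseline (11.1% higher and 4.89% lower) and 24.2% after PHx (16% higher and 8.20% lower). The baseline median of the list was -0.44, against -0.03 for all genes. After PHx 2 were higher, including Gata6 (1.28, adjusted p 0.0439), and 4 lower, including Onecut2 (-1.10, adjusted p 0.000856), Nfia (-0.85, adjusted p 0.0499), whose call was lost with DESeq2-type size factors (adjusted p 0.0547) and by library size alone (adjusted p 0.219), and Nr5a2 (-1.02, adjusted p 0.00639), which is known as an activator of Afp and whose call was lost by library size alone (-0.67, adjusted p 0.061).

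After PHx Cebpa fell by 1.77 on the log2 scale in WT (adjusted p 0.000145), and in KO it fell by 1.22 (adjusted p 0.00252). Onecut1, a homeobox factor of the liver, fell in both as well (-2.45, adjusted p 0.0148, and -1.88, adjusted p 0.0384), the KO call being lost by library size alone (-1.67, adjusted p 0.0588). In KO Gata6 rose by 2.33 (adjusted p 0.00222). The list had 0 higher and 3 lower calls in WT and 2 higher and 5 lower in KO. Over all genes 11.4% were called higher and 8.68% lower in WT, and 17.5% and 12.1% in KO.

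Of 8 genes linked to Zhx2 in mouse liver, 5 were called between genotypes at baseline and 6 after PHx. H19, an imprinted noncoding RNA of fetal liver, was higher in KO by 4.21 (adjusted p 0.00523) and 8.69 (adjusted p 2.12e-05), and Lpl, lipoprotein lipase, by 2.93 (adjusted p 0.000187) and 2.29 (adjusted p 0.00098). Elovl3, a fatty acid elongase, was lower, with log2 fold changes of -4.02 (adjusted p 0.000635) and -6.38 (adjusted p 2.1e-05), and fell after PHx in both genotypes (-3.94 in WT, adjusted p 0.00103, and -6.30 in KO, adjusted p 0.000228). Cyp4a12a, a male-biased cytochrome P450, was lower by log2 -0.93 (adjusted p 0.0443) and -1.07 (adjusted p 0.0159). Its baseline call was lost with DESeq2-type size factors (-0.91, adjusted p 0.0573) and by library size alone (-0.44, adjusted p 0.231). Mup20, a major urinary protein gene, was not called between genotypes (-0.18, adjusted p 0.805, and -0.67, adjusted p 0.234). The members Afp and Gpc3 are on this list and the next.

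Of 15 fetal liver genes 14 passed the filter, and 9 were called higher in KO at baseline and 12 after PHx, with none lower. Medians were 3.48 and 5.01 on the log2 scale, also with genes at 0 in WT set to their lower bounds, against -0.03 and -0.01 for all genes. Igf2bp3, an RNA-binding protein of fetal tissue, had 0 reads in WT at baseline and 2478 in KO, at least 634-fold higher against 3 reads in the group. Igf2bp1, of the same family, was at 0 in WT at both stages, and at least 81.4-fold higher in KO at baseline and at least 887-fold higher after PHx. Dlk1, a surface protein of fetal liver cells, also had 0 reads in WT at baseline and was at least 27.1-fold higher in KO. Scd2, a fatty acid desaturase that was chosen after its values were seen, had 4.45 ± 0.863 CPM in WT and 464 ± 197 CPM in KO at baseline (SD, n = 5; log2 6.71, adjusted p 2.87e-06). After PHx H19 (8.69, above) and Bex1 (7.43, adjusted p 0.000224) differed most among genes with reads in both groups. The list was written with earlier results of these data known and so is no independent evidence of direction.

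**Figure D5:**
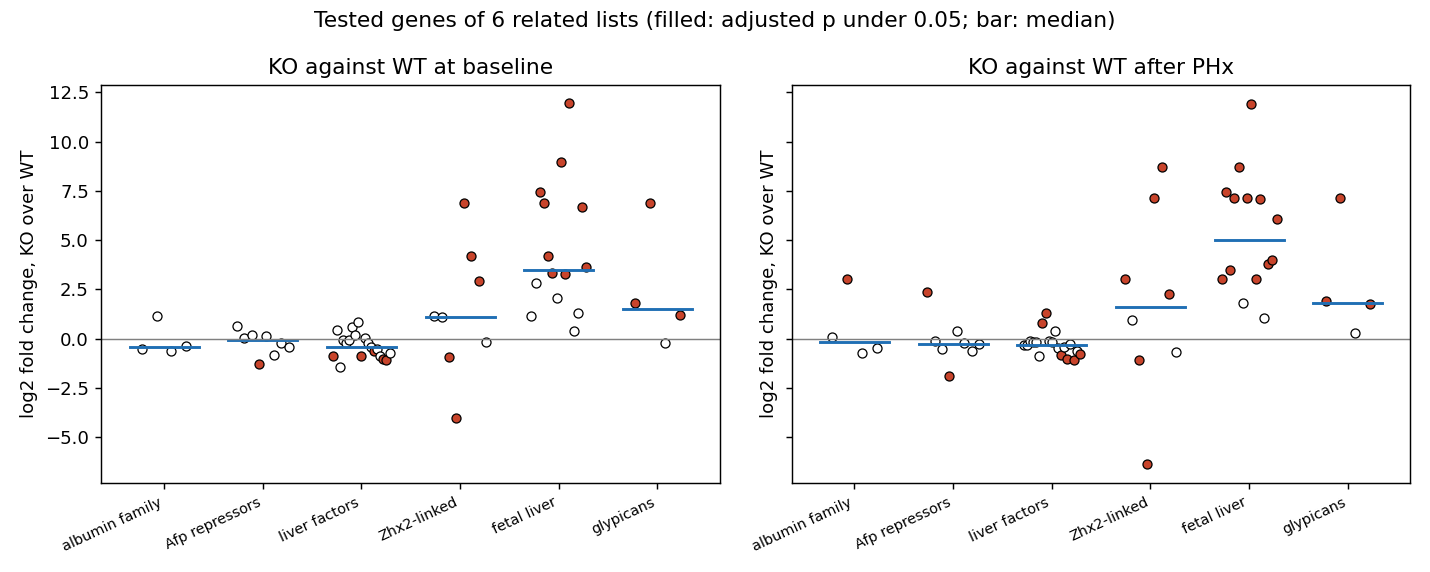
Log2 fold change of KO over WT at baseline (left) and after PHx (right) for each tested gene of the 6 lists; filled points have an adjusted p under 0.05 and blue bars are medians. Fetal liver genes have medians of 3.48 and 5.01, liver factors of -0.44 and -0.33, the albumin family of -0.43 and -0.18 and Afp repressors of -0.07 and -0.26, with single genes such as Zbtb20 (-1.28 and -1.89) away from their list's median, and points of genes at 0 in WT depend on the prior count of the fit.

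Genes whose levels ran most like each member were found by Pearson's r of log2 CPM plus 1 over the 20 libraries among 12556 genes with a mean of at least 1 CPM. The libraries share mice, groups and scaling, so a high r mostly restates the group pattern and is a description. For Afp they were B3gnt3 (r 0.89), Pmm1 (0.87), 4930539E08Rik (0.86), Plp2 (0.86) and Bex1 (0.86). For Gpc3 they were Myo15b (0.99), Igf2bp3 (0.98) and Tead2 (0.97), for Spink1 Myo7b (0.97), Lrtm2 (0.97) and Glis2 (0.96), and for Cd24a Orai2 (0.96), Sh3pxd2b (0.96) and Iqgap1 (0.96). Alb ran with mt-Co1 (0.94), Adh5 (0.94) and Pgrmc1 (0.93), Zhx2 with Tmem143 (0.92), Oxnad1 (0.91) and Dnajb2 (0.91), and Zbtb20 with Mrpl1 (0.88), Twnk (0.87) and Farsb (0.87). Among the members themselves Gpc3 and Spink1 had the highest r, 0.92, and Zbtb20 and Gpc3 the lowest, -0.81. Afp had r of 0.49 with Gpc3, 0.44 with Spink1 and 0.62 with Cd24a.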

How the data were processed

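The data are polyA RNA-seq of 20 mouse liver libraries, each group holding 5 separate mice. The authors deposited raw counts of reads per Ensembl gene, not normalised, with 1 file per library. Per the series' design text, RNA with an integrity number above 8 went into TruSeq libraries, 1000 ng each, sequenced from both ends on a NovaSeq 6000, and reads that mapped uniquely to mm10 were counted. That text names fastp 0.20.0 for trimming, after FastQC 0.11.5. The submitters' processing notes name Trimmomatic 0.36 instead. The aligner, counter, annotation and strand setting are not given in the sources used here, so antisense reads cannot be told apart, and genes with close copies, such as the pseudogene relatives of Cd24a, may lose reads.

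Symbols came from GENCODE M21, which named 46091 of 46603 identifiers; 21018 had 0 counts throughout. Differential expression used edgeR 4.0.16 in R 4.3.3 (quasi-likelihood, two-sided, TMM, filterByExpr, 4 group means over all 20 libraries). SE is the log2 fold change over the square root of its F statistic. Intervals and the floor of 3 counts for a 0 cover counting error only. The scripts were tested on simulated data.

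The members, lists, markers and tests were chosen with earlier results of these data known. Named genes are the members and, per list and contrast, at most the 4 called genes with the largest change, plus the 5 (Afp) or 3 genes most correlated with a member. A gene of the liver factor list that this rule names is not reported here. Alternatives were DESeq2 1.42.0, other scalings, filters and sample sets, a time term, each library left out, and mouse as a block. The pairing rests on the labels, which say that each mouse gave both samples; deviations of same-numbered libraries correlated from -0.06 to 0.20 over 9 mice, 3 of them over 0.1. The title of WT baseline library 1 holds no mouse number, so that mouse was left out of paired values.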

Additional observations from a re-analysis of the deposited data

Results flagged for a closer look

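In 2 of 28 sets of 5 libraries (7 genes in 4 groups) a single library lay far from the other 4 by Dixon's test, which chance gives in about 5% of such sets. Gpc3 in WT at baseline was highest in mouse 5, at 0.367 CPM from 8 reads, while the other 4 libraries had 0.065 to 0.138 CPM. Cd24a in KO at baseline was highest in mouse 7, at 22.7 CPM, with the other 4 at 5.82 to 10.6 CPM. That library also had the highest Gpc3 (24.7 CPM), Spink1 (10.6 CPM), cholangiocyte marker sum (385 CPM) and proliferation marker sum (118 CPM) of its group. Their part in the Cd24a value was not tested.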

How the results depend on the processing

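Over the 7 genes and 5 comparisons, 649 alternative values were computed: 607 kept their direction and side of the threshold, 12 gained a call, 10 lost one and 20 changed sign, all 20 among differences that were not called. For Afp in KO against WT after PHx (log2 3.02) the value was 3.08 (adjusted p 0.142) in the 10 libraries alone and 2.85 (adjusted p 0.227) with a time term, and 1.87 to 3.70 (adjusted p 0.00667 to 0.123) with 1 library left out. At baseline it was 1.15, with 1.18 called in the 10 libraries alone (adjusted p 0.0328). The Afp response in WT (3.62) ran from 2.93 to 3.98 with 1 library left out, and in KO from 4.34 to 5.85, called throughout. The cause of these changes was not tested. The 10-library fits hold fewer samples and take their spread from the groups compared alone.

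With the replicate block (mouse, 9 mice) the Afp response was 2.76 in WT (adjusted p 0.187) and 4.09 in KO (adjusted p 0.0487). The block also lost Cd24a in WT (2.45) and Gpc3 in KO (1.15), so it called 0 members in WT against 2, and it turned Spink1 in KO to -0.16. It changed no other call of a member. It called 7 genes for the difference of responses, where the unpaired fit called 57.

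By library size alone Zhx2 changed sign at baseline (0.27) and for PHx in WT (0.079), and 3634 genes were called at baseline, against 2348. The fit of the 10 libraries alone called 5242 genes there, 1345 for KO against WT after PHx (main 3544) and 2878 for PHx in KO (main 4331), and the time term called 1040 after PHx. Neither Gpc3 nor Spink1 passed the filter of the 10-library fit for PHx in WT, so no value exists there. For the difference of responses DESeq2 called 376 genes, and leaving out 1 library gave 22 to 708, the highest without KO mouse 10 after PHx. Members called for PHx in WT ran from 1 (without WT mouse 3 after PHx) to 3 with 1 library left out.

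With 1 library left out, uncalled values that changed sign ranged from -0.38 to 0.030 for the Alb difference of responses, from -0.51 to 0.63 for Cd24a, from -0.48 to 0.50 for Gpc3, from -0.33 to 0.38 for Spink1 after PHx in KO, and from -0.12 to 0.27 for Zbtb20 after PHx in WT. Without a filter the Cd24a difference was -0.033. Depth limits Spink1 and Gpc3 in WT, where groups hold 3 to 55 reads.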

Other observations

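Igf2, the fetal growth factor gene next to H19, was the only gene of the 6 related lists whose PHx response was called as different between genotypes. It had 0.27 ± 0.275 CPM in WT at baseline, 0.11 ± 0.0662 CPM in WT after PHx, 1.15 ± 0.717 CPM in KO at baseline and 15.9 ± 13.9 CPM in KO after PHx (SD, n = 5 each). The difference of responses was 5.06 on the log2 scale (SE 1.09, adjusted p 0.0454). By library size alone it was 5.14 and not called (adjusted p 0.0501). H19 rose after PHx in KO by 3.23 (adjusted p 0.00691), and its difference of responses, 4.48, was not called (adjusted p 0.195).

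Scd2 and Lpl, both higher in KO, moved the other way after PHx in KO from most fetal genes. Scd2 fell by 2.77 on the log2 scale (adjusted p 0.00277) and Lpl fell by 1.63 (adjusted p 0.0103) in KO. In WT the changes were not called; for Lpl the log2 fold change was -0.99 (adjusted p 0.11).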
